A study of Mus musculus with 3 samples.

Results

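Drd1, Drd2 and Drd4 encode receptors for dopamine, and the UMIs of these 3 genes, of 18545 genes measured, were followed across the cell clusters and libraries of a single-cell RNA-seq experiment on mouse retina. The genes were chosen by name, because one of the drugs given to the mice, bromocriptine, acts on D2-like dopamine receptors. Drd3 was not analysed here, and Drd5, the other D1-like receptor gene, had only 24 UMIs in all.

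Dopamine is released in the retina by a sparse type of amacrine cell and spreads by diffusion, carrying the signal of light and of time of day to neurons in every layer. The product of Drd1 is a D1-like receptor, which couples to stimulatory G proteins and raises cAMP. The products of Drd2 and Drd4 are D2-like receptors, which couple to inhibitory G proteins and lower cAMP. Drd4 is known as a photoreceptor gene, where its product links dopamine to cAMP and to the electrical coupling of rods and cones, while D2 receptors are best known as autoreceptors of the dopaminergic amacrine cells.

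The experiment had 3 groups of mice on the C57BL/6J background, all kept in darkness for life and examined at 8 weeks of age. WT mice of both sexes and rd10-vehicle females ate plain chow, and rd10-TMB females ate the same chow with tamsulosin, an alpha-1 adrenergic blocker, metoprolol, a beta-1 adrenergic blocker, and bromocriptine. The rd10 allele is a point mutation of Pde6b, a rod phosphodiesterase subunit, in which rods degenerate and cones follow, and darkness slows the loss. In each group, retinas from several mice were pooled into 1 droplet library. With 1 library per group no difference between groups could be tested, and the 3 drugs, given together, could not be told apart. WT was the only library of both sexes, so for the main clusters the ratios to WT were also taken with WT limited to cells with an Xist UMI and no Y-linked UMI. All intervals below are 95% intervals that cover counting error only.

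The libraries held 4478 cells from WT, 5952 from rd10-vehicle and 4812 from rd10-TMB, with a median of 3509.5, 4811.5 and 4772.5 UMIs per cell. Across libraries 25 cell barcodes recurred. The clusters are those the authors deposited by number, and their names were rebuilt here from marker genes, so they may differ from names given elsewhere. Clusters 6, 7 and 9 met no name. Cluster 10 scored as ON cone bipolar-like but also expressed amacrine markers, and is called by its number. Cluster 11, called endothelial-like, passed 9 of 10 endothelial markers but also 9 of 9 pericyte markers.

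None of the 3 genes overlapped another gene annotated by GENCODE, and the nearest neighbour of Drd4, Deaf1, lay 716 bases away on the other strand. In mm10, Drd1 lies on the minus strand at chr13:54051183-54055658, Drd2 on the plus strand at chr9:49340360-49408177 and Drd4 on the plus strand at chr7:141291974-141296464. The promoter sequences are shown because the 3 genes were read mostly in different cell classes. They come from RefSeq promoter windows on mm10, cut to the bases before the first annotated start, at chr13:54055706-54055908 for Drd1, chr9:49340153-49340359 for Drd2 and chr7:141291768-141291973 for Drd4. Each is written 5′ to 3′ on the strand of its gene, with the GC box letters GGGCGG and their reverse complement in capitals.
Drd1: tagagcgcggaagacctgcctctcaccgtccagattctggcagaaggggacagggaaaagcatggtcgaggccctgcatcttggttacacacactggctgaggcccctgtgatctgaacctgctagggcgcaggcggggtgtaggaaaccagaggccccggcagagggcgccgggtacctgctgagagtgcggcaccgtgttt
Drd2: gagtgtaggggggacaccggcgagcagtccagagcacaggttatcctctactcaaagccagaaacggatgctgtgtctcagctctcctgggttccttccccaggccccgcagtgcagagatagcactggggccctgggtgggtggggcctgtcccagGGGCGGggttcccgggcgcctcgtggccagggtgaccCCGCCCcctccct
Drd4: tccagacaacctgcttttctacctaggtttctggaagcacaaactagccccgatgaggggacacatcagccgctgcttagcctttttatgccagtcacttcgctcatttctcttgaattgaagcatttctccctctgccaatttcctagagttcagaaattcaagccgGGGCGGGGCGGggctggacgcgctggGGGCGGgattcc
The Drd4 window held 3 GC boxes, 2 of which shared letters, the Drd2 window held 2 and the Drd1 window held 0. Of 32851 RefSeq promoter windows of 206 bases, 25.8% held at least 1 on either strand. None of the 3 windows held TAATCC, the core that photoreceptor homeobox factors such as CRX are known to bind, which 5.35% of all windows held. None held the E-box CACGTG, found in 4.50% of windows, or the cAMP response element TGACGTCA, found in 0.895%. GC content was 62.6% for Drd1, 67.6% for Drd2 and 53.9% for Drd4.

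In all, Drd1 had 2648 UMIs in 1696 cells, Drd2 had 1420 UMIs in 1084 cells and Drd4 had 4797 UMIs in 2943 cells. At least 1 of the 3 genes was detected in 42.0% of the cells from WT, 28.97% of those from rd10-vehicle and 34.3% of those from rd10-TMB, libraries that also differed in how many cells of each class they held. Drd1 was read mainly in cone bipolar and amacrine-like clusters, with 34.5% of its UMIs in cluster 3, the ON cone bipolar-like cells. Drd2 had 62.2% of its UMIs in cluster 2, the rod bipolar-like cells. Drd4 had 40.3% in cluster 1, the rod-like cells, and 26.0% in cluster 4, the cone-like cells.

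**Figure D1:**
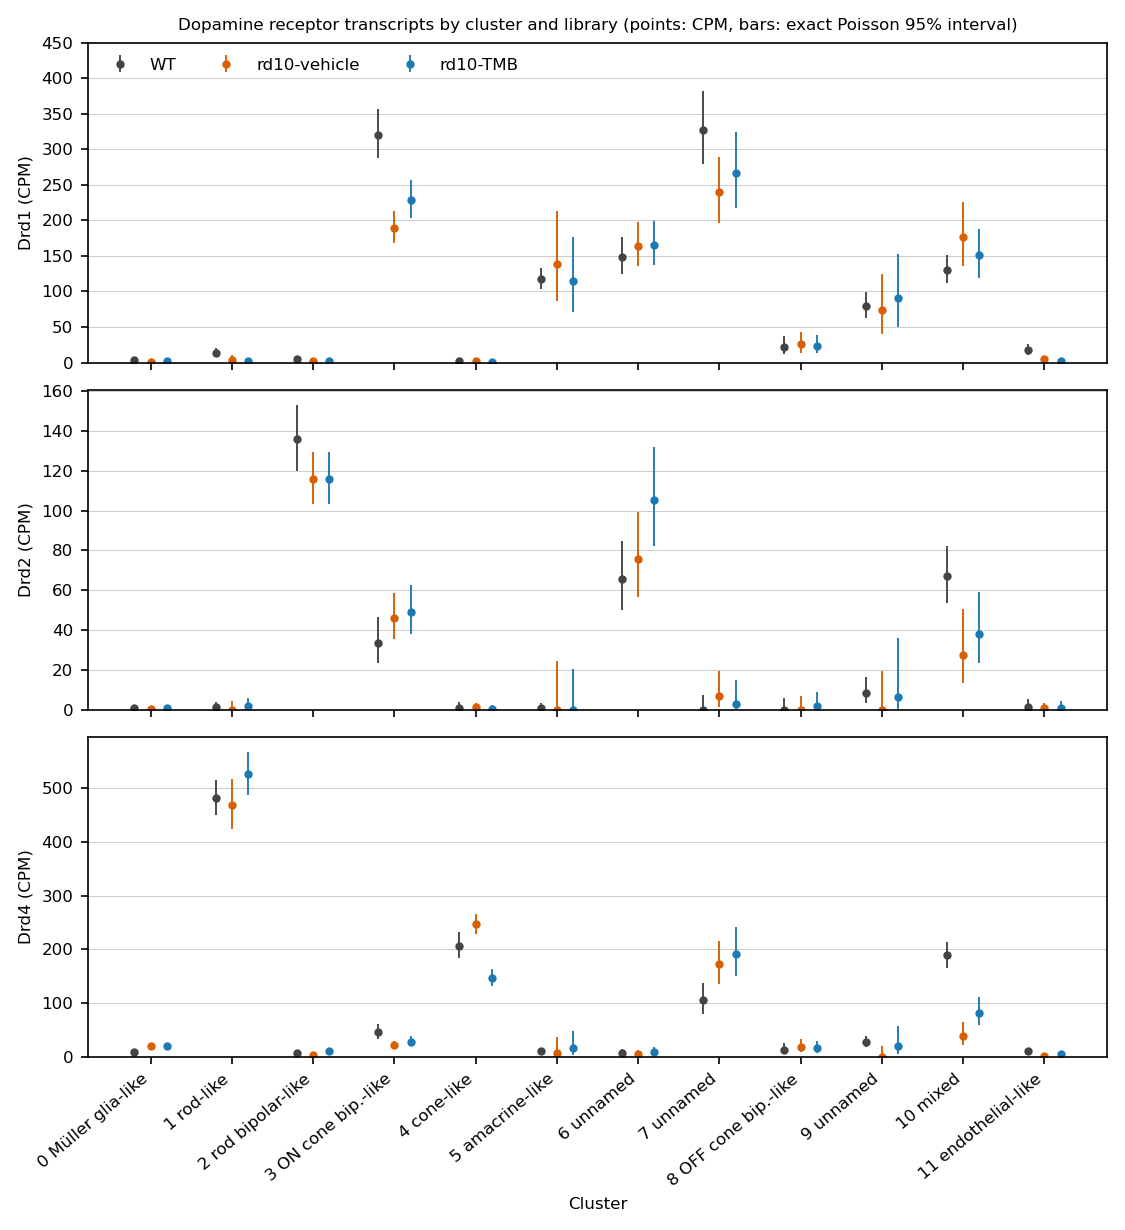
Drd1, Drd2 and Drd4 levels (vertical axes, CPM, which is UMIs of the gene per 1000000 UMIs) in clusters 0 to 11 (horizontal axis), with 1 point for each library and exact Poisson 95% intervals as bars. Drd1 was high in clusters 3 and 7, Drd2 in cluster 2 and Drd4 in cluster 1, in each of the 3 libraries.

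Levels are given as CPM, the UMIs of a gene per 1000000 UMIs summed over the cells of a cluster in 1 library, with exact Poisson intervals, and ratios between libraries as log2 ratios with exact conditional intervals. A ratio was counted as higher or lower when it passed 1.5-fold with at least 20 UMIs over the pair of libraries. Over clusters 0 to 7 and 10, rd10-vehicle against WT gave 19 such ratios of the 3 genes, of which 7 were lower and 2 higher. Over all genes in these clusters the shares were 11.2% lower and 10.5% higher. rd10-TMB against WT also gave 19 ratios, with 5 lower and 4 higher, beside 10.8% and 8.86% over all genes. rd10-TMB against rd10-vehicle gave 18 ratios, with 1 lower and 3 higher, beside 6.39% and 5.08%. The lower one was Drd4 in cone-like cells, and the higher ones were Drd2 in cluster 0 and Drd4 in clusters 2 and 10. Each pair of comparisons shares a library.

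**Figure D2:**
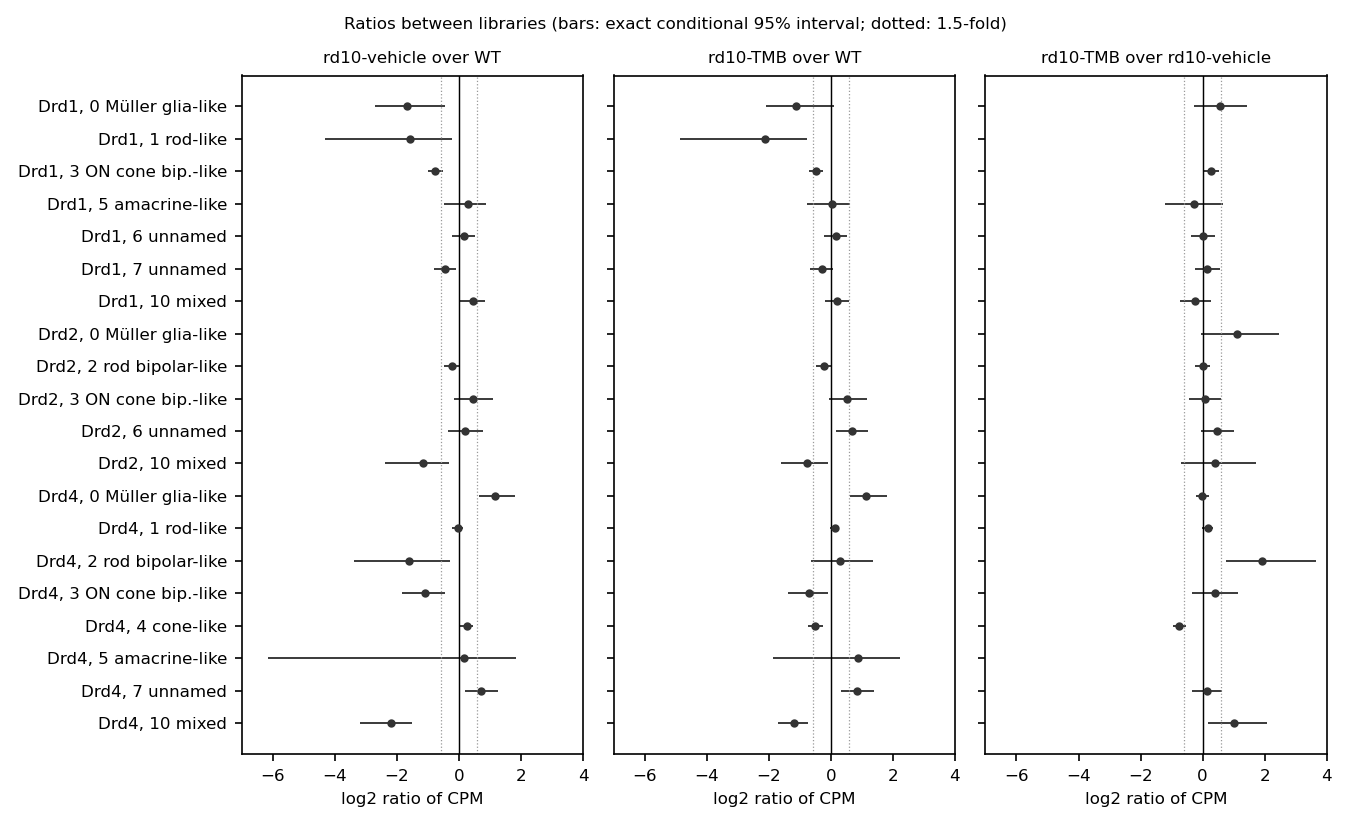
Log2 ratios of CPM (horizontal axes) for each gene and cluster (rows) in rd10-vehicle over WT, rd10-TMB over WT and rd10-TMB over rd10-vehicle, with exact conditional 95% intervals as bars and dotted lines at 1.5-fold. Ratios without a finite interval are not drawn. Drd4 in cone-like cells lay at -0.74 in rd10-TMB over rd10-vehicle, and Drd4 in cluster 10 at -2.19 in rd10-vehicle over WT.

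Drd4 was highest in rod-like cells in each library. Its level there was 482 CPM in WT (interval 450.1 to 515), with rd10-vehicle at 468 CPM (424 to 516) and rd10-TMB at 526 CPM (487 to 568). The 3 intervals overlapped. A Drd4 UMI was found in 48.0% (45.1 to 50.9) of rod-like cells in WT, 46.6% (42.4 to 50.8) of those from rd10-vehicle and 52.4% (48.8 to 56.0) of those from rd10-TMB by exact binomial intervals, at a median of 1423, 1406 and 1536 UMIs per cell. Rod bipolar-like cells, which are not known for Drd4, had one in 3.46%, 0.823% and 3.86% of cells at median depths of 5032, 3638 and 4310 UMIs. The log2 ratio in rod-like cells was -0.04 (-0.21 to 0.13) for rd10-vehicle over WT, 0.13 (-0.02 to 0.28) for rd10-TMB over WT and 0.17 (-0.01 to 0.35) for rd10-TMB over rd10-vehicle. With each cell thinned to 1000 UMIs, which left out 717 shallower cells of the series (348 from WT, 166 from rd10-vehicle and 203 from rd10-TMB), the shares were 35.5%, 36.3% and 38.9%.

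Drd4 in cone-like cells was lowest in the library of the treated mice. It stood at 207 CPM in WT (184 to 232), with rd10-vehicle at 246 CPM (228 to 266) and rd10-TMB at 147 CPM (131 to 164). The rd10-TMB interval lay below the others, while those of WT and rd10-vehicle overlapped. The log2 ratio of rd10-TMB over rd10-vehicle was -0.74 (-0.95 to -0.55), a 1.68-fold lower level, in a cluster where 5.19% of genes were lower by 1.5-fold. It was 0.25 (0.05 to 0.46) for rd10-vehicle over WT and -0.50 (-0.73 to -0.26) for rd10-TMB over WT. With WT limited to cells with Xist and without Y-linked UMIs, these were 0.0063 and -0.74. Drd4 in cones was singled out earlier from these same libraries, so its direction is not independent evidence.

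The difference in cone-like cells was seen in the share of cells as well as in the sum. A Drd4 UMI was detected in 55.0% (49.0 to 61.0) of cone-like cells in WT, 61.1% (56.8 to 65.2) of those from rd10-vehicle and 47.3% (42.4 to 52.3) of those from rd10-TMB, at median depths of 5333, 4857 and 5548.5 UMIs. Cells with 3 or more Drd4 UMIs made up 13.7%, 15.5% and 7.77%. Both shares were lowest in rd10-TMB, whose cone-like cells had the highest median depth. After thinning to 1000 UMIs the share was 19.4%, 19.8% and 15.4%, with overlapping intervals, and the log2 ratio of rd10-TMB over rd10-vehicle was -0.47. The summed level of 11 rod markers, none at 0, was 11885 CPM in the cone-like cells of WT, 11562 CPM in those of rd10-vehicle and 12069 CPM in those of rd10-TMB. Some of these markers are known to be expressed by cones as well, and the part of rod RNA in the Drd4 reads of cone-like cells was not tested.

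Mouse cones carry a short-wave opsin, Opn1sw, a middle-wave opsin, Opn1mw, or both, so Drd4 was also read by the Opn1sw share of the 2 opsins' UMIs in each cone-like cell. In WT the level was flat, at 210.3 CPM under a share of 0.25, 206 CPM from 0.25 to 0.75 and 205 CPM over 0.75. In rd10-vehicle it was 279, 223 and 215 CPM, and in rd10-TMB 144, 145 and 154 CPM. The rd10-TMB level was the lowest of the libraries in each range. The log2 ratio of rd10-TMB over rd10-vehicle was -0.95 (-1.25 to -0.66) in cells with mostly Opn1mw, -0.61 (-1.04 to -0.21) in between and -0.48 (-0.85 to -0.13) in cells with mostly Opn1sw. These 3 intervals overlap. For rd10-vehicle over WT, the interval excluded 0 only in the first range, at 0.40 (0.08 to 0.74), and the difference between ranges was not tested.

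**Figure D3:**
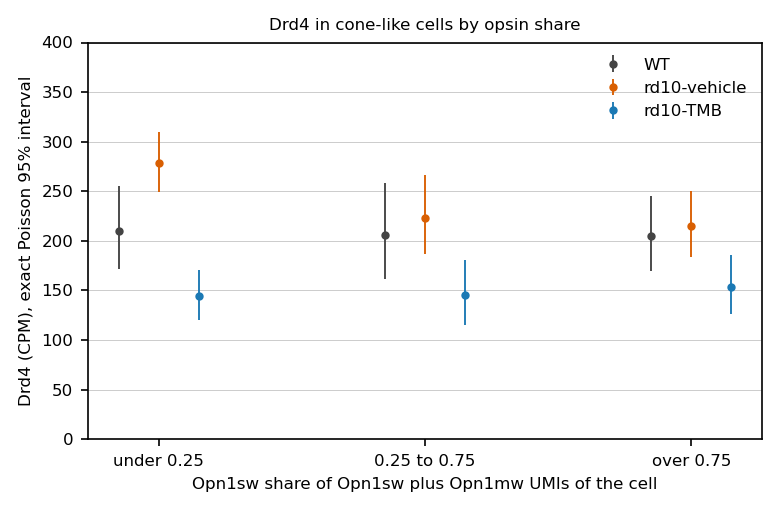
Drd4 level in cone-like cells (vertical axis, CPM) by the Opn1sw share of the opsin UMIs of the cell (horizontal axis), with points for each library and exact Poisson 95% intervals as bars. The rd10-TMB points lie between 144 and 154 CPM, below those of WT and rd10-vehicle in each range.

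Drd4 in Müller glia-like cells, cluster 0, was higher in both rd10 libraries than in WT. It stood at 8.43 CPM in WT (5.60 to 12.2), with rd10-vehicle at 19.4 CPM (17.6 to 21.3) and rd10-TMB at 19.2 CPM (17.2 to 21.4). Both rd10 intervals lay above the WT interval. The log2 ratio was 1.15 (0.65 to 1.81) for rd10-vehicle over WT and 1.14 (0.63 to 1.80) for rd10-TMB over WT, in a cluster where 9.78% and 7.88% of genes were higher by 1.5-fold. Between the rd10 libraries it was -0.01 (-0.23 to 0.20). A Drd4 UMI was found in 4.91% (3.23 to 7.11), 11.3% (10.1 to 12.6) and 12.1% (10.6 to 13.8) of these cells, at median depths of 6300, 8593.5 and 9454.5 UMIs. After thinning these shares were 0.759%, 1.57% and 1.39%, with overlapping intervals.

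The Drd4 UMIs of Müller glia-like cells in the rd10 libraries lay mostly in cells that also held many rod transcripts. Cells with 30 or more UMIs of the 11 rod markers made up 0.943% of the cluster in WT, only 5 cells, with 7.42% in rd10-vehicle and 7.32% in rd10-TMB, and held 14.3%, 55.8% and 55.9% of its Drd4 UMIs. Their Drd4 level was 83.8 CPM (22.8 to 215), 91.7 CPM (80.4 to 104) and 86.1 CPM (74.0 to 99.7). The summed level of the cone markers in those cells was 943, 1390 and 1950 CPM, and Glul, the glutamine synthetase gene of glia, stood at 3121, 3860 and 4034 CPM. Cells with at most 4 rod marker UMIs had 5.79 CPM of Drd4 (2.99 to 10.1) in WT, 4.28 CPM (3.24 to 5.56) in rd10-vehicle and 5.11 CPM (3.67 to 6.93) in rd10-TMB. The 3 intervals overlapped, and there the rd10 libraries were not higher than WT. These cells had median depths of 5797, 8018 and 8691 UMIs, and their rod markers summed to 425, 230 and 295 CPM. The range was set by UMIs and not by share, so it did not hold equal rod RNA in the 3 libraries. With 5 to 9 rod marker UMIs the Drd4 level was 3.23 CPM (0.666 to 9.44), 13.7 CPM (10.1 to 18.2) and 9.60 CPM (6.79 to 13.2), and the rd10-vehicle interval lay above that of WT. In the cells under the median of the cluster for the rod marker share of UMIs, the log2 ratio was -0.49 (-1.52 to 1.22) for rd10-vehicle over WT and -0.05 (-1.11 to 1.66) for rd10-TMB over WT. Over the cluster as a whole the 11 rod markers, none at 0, summed to 724, 1040 and 1130 CPM. Drd4 had 11.6 UMIs (7.72 to 16.9) per 1000 rod marker UMIs in WT, 18.6 (16.9 to 20.5) in rd10-vehicle and 17.0 (15.2 to 18.97) in rd10-TMB. In rod-like cells it had 12.7, 12.3 and 12.9. The part of rod RNA in the glial Drd4 reads beyond these values was not tested.

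**Figure D4:**
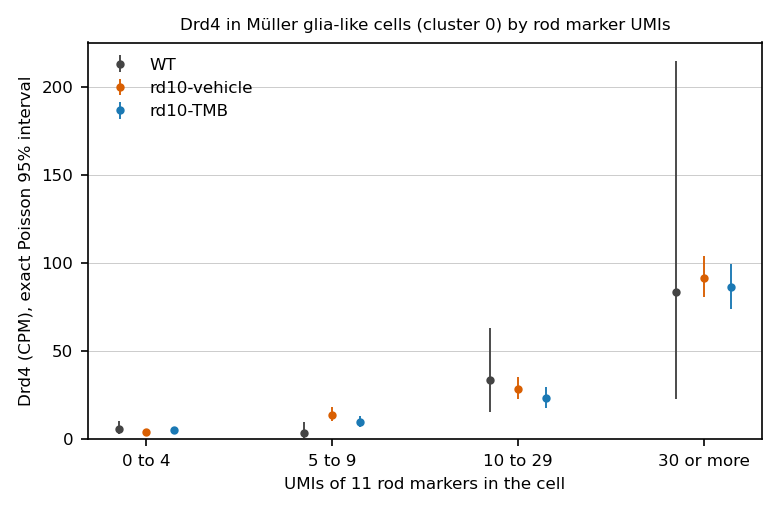
Drd4 level in Müller glia-like cells (vertical axis, CPM) by the number of UMIs of 11 rod markers in the cell (horizontal axis), with points for each library and exact Poisson 95% intervals as bars. Levels with 0 to 4 rod marker UMIs lie between 4.28 and 5.79 CPM in the 3 libraries, and with 30 or more between 83.8 and 91.7 CPM.

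Cluster 10 carried all 3 genes. In it 63 cells had both Drd2 and Drd4, 7 had both Drd1 and Drd4, and 2 had both Drd1 and Drd2. As a whole it had Drd4 at 189 CPM in WT, with rd10-vehicle at 38.7 CPM and rd10-TMB at 82.0 CPM, log2 ratios to WT of -2.19 (-3.18 to -1.51) and -1.17 (-1.70 to -0.73). Drd2 there was at 66.9, 27.6 and 38.2 CPM, with ratios of -1.16 (-2.39 to -0.33) and -0.76 (-1.59 to -0.10). Both genes were lower in the rd10 libraries, in a cluster where 13.0% of genes were lower by 1.5-fold in rd10-vehicle and 11.4% in rd10-TMB. Drd1 was at 131, 177 and 151 CPM, with overlapping intervals.

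Cluster 10 was then split by marker genes, a step chosen after its values were seen. Cells with more amacrine than cone bipolar marker UMIs numbered 92 in WT, with 8 in rd10-vehicle and 20 for rd10-TMB. They expressed Slc6a9 at 1051, 878 and 1036 CPM and Slc6a5 at 136, 113 and 120.2 CPM, the glycine transporter genes of glycinergic neurons. In them Drd4 was at 350.5 CPM (307 to 398), 312 CPM (156 to 557) and 308 CPM (221 to 418), detected in 85.9%, 62.5% and 85.0% of cells. The 3 intervals overlapped, and the log2 ratio was -0.05 (-1.19 to 0.70) for rd10-vehicle over WT and -0.16 (-0.70 to 0.30) for rd10-TMB over WT. Drd2 was at 129, 255 and 150.2 CPM in the same cells, and the pair of genes was detected together in 48, 5 and 10 cells of the cluster. Those cells were most of the 107 cells with both Drd2 and Drd4 in the whole series. The lower Drd4 and Drd2 of the whole cluster in rd10 went with fewer cells of this kind in those libraries.

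The remaining cells of cluster 10, with more cone bipolar marker UMIs, numbered 147, 99 and 103 and carried Drd1. Its level was 270.1 CPM in WT, with rd10-vehicle at 196 CPM and rd10-TMB at 202 CPM, and Drd2 was at 0, 3.06 and 0 CPM. They expressed Cck, a neuropeptide gene, at 2790, 2900 and 3703 CPM. The log2 ratio of Drd1 was -0.45 (-0.90 to -0.04) for rd10-vehicle over WT and -0.41 (-0.82 to -0.03) for rd10-TMB over WT, opposite in sign to the 0.45 and 0.21 of the undivided cluster.

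**Figure D5:**
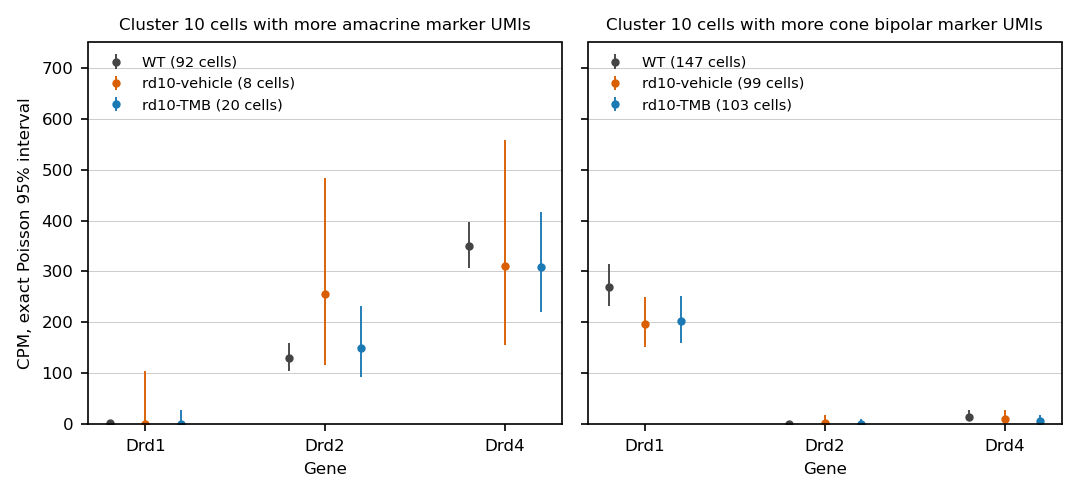
Drd1, Drd2 and Drd4 levels (vertical axis, CPM) in cluster 10, with cells divided by whether they held more amacrine or more cone bipolar marker UMIs, points for each library and exact Poisson 95% intervals as bars. Drd4 was at 308 to 350.5 CPM in the cells with amacrine markers, and Drd1 at 196 to 270.1 CPM in the cells with cone bipolar markers.

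Drd1 in ON cone bipolar-like cells, cluster 3, was highest in WT. Its level was 321 CPM in WT (288 to 356), with rd10-vehicle at 189.6 CPM (168 to 214) and rd10-TMB at 229 CPM (204 to 257). The WT interval lay above both others, which overlapped. The log2 ratio was -0.76 (-0.99 to -0.52) for rd10-vehicle over WT, a 1.69-fold lower level in a cluster where 11.4% of genes were lower by 1.5-fold. It was -0.48 (-0.71 to -0.26) for rd10-TMB over WT and 0.27 (0.03 to 0.52) for rd10-TMB over rd10-vehicle. Drd1 was detected in 46.9% (41.8 to 52.0), 39.1% (34.8 to 43.5) and 44.5% (39.5 to 49.5) of the cells, with median depths of 2464, 2992 and 3515 UMIs. After thinning the shares were 27.1%, 18.2% and 18.8%, again highest in WT. Müller glia-like cells, deeper at 6300 to 9454.5 UMIs, had a Drd1 UMI in 2.08%, 0.963% and 1.20% of cells.

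Cluster 7, led by Otor, Kcnh8, Slitrk6 and Grik1, had Drd1 at 328 CPM in WT, with rd10-vehicle at 239.6 CPM and rd10-TMB at 267 CPM. The log2 ratio to WT was -0.45 (-0.82 to -0.09) in rd10-vehicle and -0.29 (-0.67 to 0.07) in rd10-TMB. Drd4 in the same cluster went the other way, at 105, 172 and 192 CPM, with ratios of 0.70 (0.19 to 1.24) and 0.86 (0.34 to 1.41). Drd4 passed 1.5-fold in both rd10 libraries, beside 9.15% and 8.78% of genes of the cluster that were higher. Of the 187 cells of the series with both Drd1 and Drd4, 74 were in cluster 7. The 11 rod markers, none at 0, summed to 1897, 2113 and 2386 CPM there, and in its cells under the median of the cluster for the rod marker share Drd4 was at 109, 168 and 227 CPM. In those same cells Drd1 was at 287, 258 and 374 CPM, with ratios to WT of -0.15 (-0.64 to 0.34) and 0.39 (-0.14 to 0.90), so that the sign for rd10-TMB turned and the rd10-vehicle interval included 0.

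Cluster 6, led by Slc35d3, Gnat3 and Cartpt, held Drd1 at 148, 164 and 166 CPM and Drd2 at 65.8, 75.7 and 105 CPM in WT, rd10-vehicle and rd10-TMB. Drd2 was higher in rd10-TMB than in WT by a log2 ratio of 0.67 (0.16 to 1.20), in a cluster where 8.15% of genes were higher. In WT, 42 of its cells had more amacrine marker UMIs, against 3 and 2 cells in the rd10 libraries. In the other cells Drd2 was at 91.2, 75.7 and 106 CPM, and the ratio of rd10-TMB over WT was 0.21 (-0.30 to 0.74). Drd1 in the cells with more cone bipolar marker UMIs was at 208, 168 and 169 CPM, with ratios to WT of -0.30 (-0.68 to 0.07) and -0.29 (-0.67 to 0.08), opposite in sign to the 0.15 and 0.16 of the undivided cluster. Of 186 cells with both Drd1 and Drd2, 82 were in cluster 6 and 85 in cluster 3.

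Amacrine-like cells, cluster 5, had Drd1 at 118 CPM (104 to 134), 139 CPM (86.1 to 213) and 115 CPM (71.3 to 176), from 461, 43 and 35 cells. The intervals overlapped. Cluster 9, which had 9 of 14 amacrine markers but no name, had Drd1 at 79.3, 74.3 and 91.0 CPM from 295, 62 and 48 cells. In both clusters the libraries differed more in cell number than in the level of Drd1 per UMI. In the horizontal-like cluster 19 Drd1 was detected in 14 of 18 cells of WT, 0 of 4 of rd10-vehicle and 4 of 6 of rd10-TMB, too few to compare. Retinal ganglion-like cells had 17, 3 and 1 Drd1 UMIs, from 37, 3 and 3 cells.

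Drd1 was near the lower end in other clusters. It stood at 17.2, 4.43 and 1.59 CPM in endothelial-like cells, from 24, 8 and 2 UMIs, and at 13.3, 3.49 and 2.37 CPM in rod-like cells, from 24, 3 and 3 UMIs. In both, WT was higher than the rd10 libraries, and WT also held more Drd1 in all, with 1290 UMIs against 663 and 695. In Müller glia-like cells it was 3.31, 1.08 and 1.61 CPM, in rod bipolar-like cells 4.58, 2.29 and 2.22 CPM, and in OFF cone bipolar-like cells 21.4, 25.6 and 23.7 CPM. Whether free RNA from Drd1-rich cells adds to these low levels was not tested.

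Drd2 in rod bipolar-like cells was close in the 3 libraries. It was at 136 CPM in WT (120.1 to 153), with rd10-vehicle at 116 CPM (103 to 129.6) and rd10-TMB at 116 CPM (103 to 129.5), with overlapping intervals. The log2 ratio was -0.23 (-0.47 to 0.01) for each rd10 library over WT and 0.00 (-0.23 to 0.23) for rd10-TMB over rd10-vehicle. Drd2 was detected in 45.7% (40.8 to 50.7), 33.2% (29.8 to 36.7) and 38.3% (34.6 to 42.2) of the cells, at median depths of 5032, 3638 and 4310 UMIs. The shares followed the order of depth, and after thinning they were 9.98%, 12.03% and 10.1%, with overlapping intervals. Cone-like cells, at medians from 4857 to 5548.5 UMIs, had a Drd2 UMI in 0.360%, 0.554% and 0.243% of cells. Drd2 in ON cone bipolar-like cells was lower, at 33.6, 46.2 and 49.0 CPM, with intervals that overlapped. In Müller glia-like cells Drd2 had 2, 10 and 17 UMIs, and the log2 ratio between the rd10 libraries, 1.11 (-0.04 to 2.46) with rd10-TMB higher, rests on these.

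Drd4 was also read at low levels in bipolar clusters. In cluster 3 it stood at 45.7, 21.0 and 27.6 CPM, with log2 ratios to WT of -1.10 (-1.83 to -0.44) and -0.72 (-1.39 to -0.08), beside 11.4% and 10.9% of genes of the cluster that were lower. After thinning the levels were 32.4, 12.9 and 33.1 CPM, so that rd10-TMB was no longer below WT. In the cells of the cluster under its median rod marker share they were 22.8, 15.5 and 8.38 CPM, from 11, 12 and 5 UMIs, with a rd10-vehicle over WT ratio of -0.57 (-1.87 to 0.76). The 11 rod markers summed to 3771, 2819 and 3655 CPM in that cluster. In rod bipolar-like cells Drd4 stood at 7.63, 2.29 and 9.63 CPM, from 15, 6 and 26 UMIs, and the rod markers at 685, 445 and 681 CPM. None of the 11 markers was at 0. Drd4 and the marker sum had their lowest level in rd10-vehicle in both clusters. Per 1000 rod marker UMIs, Drd4 had 12.1, 7.45 and 7.55 UMIs in cluster 3 and 11.1, 5.15 and 14.1 in rod bipolar-like cells, with overlapping intervals. The part of free rod RNA in these Drd4 reads was not tested. OFF cone bipolar-like cells had Drd4 at 13.2, 18.3 and 15.8 CPM, with overlapping intervals.

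Drd4 UMIs were few in 3 further clusters. Amacrine-like cells had 24, 1 and 3, at 11.4, 6.62 and 16.5 CPM, and the ratio of rd10-TMB over WT, 0.88 (-1.85 to 2.25), was past 1.5-fold with an interval that included 0. Cluster 9 had 26, 0 and 3, at 26.8 CPM in WT (17.5 to 39.2) and 19.5 CPM in rd10-TMB, while the count of 0 in rd10-vehicle allows up to 15.9 CPM by 3 counts and 19.6 CPM by the exact Poisson bound, which overlaps the WT interval. The log2 ratio of rd10-vehicle over WT was -2.39, past 1.5-fold, and its exact conditional interval, without a lower limit and up to -0.35, excluded 0. Endothelial-like cells had 14, 2 and 6, at 10.03, 1.11 and 4.77 CPM.

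Drd5 was read 23 times in WT, 0 times in rd10-vehicle and 1 time in rd10-TMB. All lay in clusters 5, 6 and 9, at 3.80, 4.46 and 11.3 CPM in WT. A count of 0 in rd10-vehicle allows up to 19.9 CPM in cluster 5, 4.36 CPM in cluster 6 and 15.9 CPM in cluster 9. These limits use 3 counts, and the exact Poisson upper bounds are 24.4, 5.37 and 19.6 CPM. Each exact bound is above the WT level of its cluster. The limit from 3 counts in cluster 6, 4.36 CPM, is below the WT level of 4.46 CPM. By the exact bounds no single cluster showed a difference from WT, and the sum over these clusters was not tested.

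The source of dopamine was hardly sampled. Th, the gene for tyrosine hydroxylase, had 22 UMIs, and at least 2 of them were found in 1 cell of WT, 0 of rd10-vehicle and 1 of rd10-TMB. Neither cell had a Drd2 UMI, so the autoreceptor of dopaminergic cells could not be assessed. Ddc, which makes dopamine from its precursor, had 100 of 125 UMIs in endothelial-like cells. Gch1, the first enzyme of the tetrahydrobiopterin cofactor, had 399 of 577 UMIs there, and the other cofactor genes Pts, Spr and Qdpr had 8264, 5841 and 5914 UMIs in all. Slc18a2, the vesicular monoamine transporter, had 125 UMIs. Of the monoamine oxidases that break dopamine down, Maoa had 1948 UMIs and Maob 403. Slc6a3, the dopamine transporter gene, was not analysed here.

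The genes of dopamine supply and of signalling below the receptors were described from 7 lists with 82 genes measured. In cone-like cells 45 of them had 20 UMIs or more over rd10-TMB and rd10-vehicle. Of these 3 were lower in rd10-TMB and 0 higher, beside 5.19% and 3.41% of all genes, with a median log2 ratio of -0.02 against 0.01 over all genes. The lower ones were Gnb4, a G protein beta subunit, at 3.22 against 6.63 CPM, Junb, an immediate early transcription factor, at 314 against 527 CPM, and Cartpt, a neuropeptide precursor, at 6.90 against 33.9 CPM. Their log2 ratios were -0.93 (-2.55 to 0.30), -0.75 (-0.88 to -0.61) and -2.22 (-3.19 to -1.50). Cartpt also led cluster 6, and its source in cone-like cells was not tested.

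Of the genes known to respond to cAMP or dopamine, 12 had enough UMIs in cone-like cells for the ratios to WT. In rd10-vehicle 8 of 12 were higher and 0 lower, beside 6.23% and 8.68% of all genes, with a median log2 ratio of 1.02. In rd10-TMB 5 were higher and 1 lower, beside 5.27% and 8.9%, with a median of 0.49. The medians over all genes were -0.06 and -0.05. In rod-like cells the order of the libraries was the other way. There 5 of 12 were higher and 1 lower in rd10-vehicle, beside 8.29% and 12.2% of all genes, with a median of 0.20, and 7 were higher and 1 lower in rd10-TMB, beside 6.42% and 11.5%, with a median of 0.61. The medians for rd10-vehicle and rd10-TMB over WT were 0.61 and 0.36 in Müller glia-like cells, 0.20 and 0.19 in rod bipolar-like cells and -0.21 and -0.15 in ON cone bipolar-like cells. In cone-like cells Fos, an immediate early gene, stood at 1536 CPM in WT, with rd10-vehicle at 3260 CPM and rd10-TMB at 2574 CPM, and Nr4a1, a nuclear receptor of the same class of early genes, at 72.3, 184 and 126 CPM. Both genes were named after their values were seen. Whether the list followed cAMP, dopamine or the handling of the cells of each library was not tested.

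In rod-like cells 39 list genes had enough UMIs over rd10-TMB and rd10-vehicle, with 3 lower and 3 higher, beside 7.74% and 6.08% of all genes. The median log2 ratio was 0.11 against 0.00 over all genes. Lower were Gnb2, a G protein beta subunit, at 39.6 against 63.9 CPM, Prkaca, the catalytic subunit of protein kinase A, at 17.4 against 33.7 CPM, and Gnb3, the cone transducin beta gene, at 325 against 683 CPM. Higher were Adcy6, an adenylyl cyclase, at 62.5 against 39.5 CPM, Crem, a cAMP-responsive repressor, at 11.9 against 6.97 CPM, and Per1, a clock gene, at 33.2 against 19.8 CPM. The intervals of Crem and Per1 included 0.

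Over 35 points, each a cluster of at least 50 cells in 1 library, the genes whose log2 levels followed each receptor gene most closely were taken from 14568 genes. These points share libraries, depth and free RNA, so Pearson's r is only a description. For Drd1 they included Pcsk2, Kcnt1, Rab3c and Gria2, with r from 0.92 to 0.93. Pcsk2 is a prohormone convertase, Rab3c a synaptic vesicle GTPase and Gria2 an AMPA receptor subunit. For Drd2 they were Chtf18, Grm6, Isl1, Grm5 and Gm17634, with r from 0.87 to 0.95, of which Grm6 is the glutamate receptor of ON bipolar cells and Isl1 a transcription factor they express. For Drd4 they were Ubap1l, Tulp1, Nxnl1, Samd7 and Zdhhc2, with r from 0.85 to 0.90, of which Tulp1, Nxnl1 and Samd7 are photoreceptor genes. Between the receptor genes themselves r was 0.42 for Drd1 and Drd2, 0.14 for Drd1 and Drd4 and -0.09 for Drd2 and Drd4.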

How the data were processed

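Retinal cells were profiled with droplet single-cell RNA-seq of 3′ tags in 3 libraries, 1 per group. Per the labels each library pooled 1 retina from each of 4 mice, while the published methods count 3 mice for each rd10 library. The authors ran Cell Ranger 6.0.1 on mm10, removed doublets with Scrublet, kept cells with at least 500 genes, and clustered after Harmony in Seurat 3.2.2. The deposited values are the natural log of 1 plus UMIs scaled to a fixed total per cell. UMI counts were recovered from them with the deposited totals, and 32620606 of 32620606 entries came out whole within 0.001 UMI. Values were summed over the cells of each deposited cluster and library with Python 3.11.15, numpy 2.4.6, scipy 1.17.1 and pandas 2.3.3. CPM had exact Poisson intervals, shares of cells had exact binomial intervals, and ratios used a pseudocount of 1 UMI with exact conditional intervals. No test across groups was possible with 1 library each. Ratio intervals were checked on simulated data. A limit for a count of 0 used 3 counts. Clusters were named from 156 marker entries, where at least 3 markers had to pass 2-fold and 20 CPM.

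The members and gene lists were chosen with earlier results of these data known. Named were the 3 receptor genes wherever they had 20 UMIs, the 5 genes most like each, the genes of the synthesis, breakdown and other receptor lists, and other list genes past 1.5-fold in cone-like or rod-like cells between the rd10 libraries. Fos and Nr4a1 were named after their values were seen. Alternatives covered scaling, gene totals, means over cells, pseudocount, cell filters, thinning, marker and sex limits on cells, count minimum and fold limit. Splits by rod markers and by amacrine and bipolar markers were added after the data were seen. Some genes that these rules and lists hold are not reported here. Promoter windows and positions came from RefSeq on mm10.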

Additional observations from a re-analysis of the deposited data

Results flagged for a closer look

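Some genes moved in opposite directions in different clusters under the same pair of libraries, with intervals on either side of 0. In each case the difference was not tested, since there was 1 library per group. Drd4 in rd10-vehicle over WT was higher in Müller glia-like cells and lower in cluster 10, a difference of 3.35 in the log2 ratio, and in rd10-TMB over WT the same clusters differed by 2.31. Both sides were smaller in part of the cells when these were divided by markers. Müller glia-like cells under the median rod marker share gave -0.49 (-1.52 to 1.22) and -0.05 (-1.11 to 1.66), intervals that rest on 6 UMIs in WT and also contain the undivided ratios, and the cells of cluster 10 with more amacrine marker UMIs gave -0.05 (-1.19 to 0.70) and -0.16 (-0.70 to 0.30). Drd2 in rd10-TMB over WT was higher in cluster 6 and lower in cluster 10, a difference of 1.43. In the cells of cluster 6 with more cone bipolar marker UMIs it was 0.21 (-0.30 to 0.74), and in the cells of cluster 10 with more amacrine marker UMIs 0.27 (-0.56 to 0.93), so that the directions were no longer opposite. Drd4 in rd10-TMB over rd10-vehicle was higher in rod bipolar-like cells, from 26 against 6 UMIs, and lower in cone-like cells, a difference of 2.65.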

How the results depend on the processing

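Of 216 alternative values, 186 stayed with the reported value, 28 moved beyond it, and 2 turned the direction of a ratio whose reported interval excluded 0. For the ratios of the 3 genes in their main clusters, 142 of 154 alternatives lay within the reported interval, and 16 had the opposite sign, all but those 2 for ratios whose reported interval included 0. Drd4 in cone-like cells stayed below 0 in rd10-TMB over rd10-vehicle in 9 of 9 alternatives, from -0.78 to -0.47, the last with cells thinned to 1000 UMIs. Thinning also gave -0.26 for Drd4 in cone-like cells in rd10-TMB over WT, -0.72 for Drd1 in ON cone bipolar-like cells in rd10-TMB over WT, and 0.25 and -0.29 for Drd2 in rod bipolar-like cells in rd10-vehicle over WT and rd10-TMB over rd10-vehicle. With WT limited to cells with Xist but without Y-linked UMIs, Drd4 in cone-like cells was 0.0063 in rd10-vehicle over WT and -0.74 in rd10-TMB over WT. With cells of at least 1000 genes, Drd4 in rod-like cells was -0.067 in rd10-TMB over WT and -0.081 in rd10-TMB over rd10-vehicle. Cells under the class median of the rod marker share of UMIs, an alternative added after the data were seen, gave -0.49 and -0.054 for Drd4 in Müller glia-like cells in rd10-vehicle and rd10-TMB over WT, against 1.15 and 1.14, and 0.43 between the rd10 libraries. The cause of these shifts was not tested. Of the list genes in cone-like cells, lower in rd10-TMB than rd10-vehicle fell from 3 to 1 with a minimum of 200 UMIs and to 1 with a 2-fold limit, and higher went from 0 to 2 with means over cells and to 3 with thinning. In rod-like cells, lower went from 3 to 1 and 1 under the minimum of 200 UMIs and the 2-fold limit, and higher from 3 to 0 and 0, and to 1 with a mitochondrial share of 10% or less. With the libraries summed, 16 points in place of 35, the genes most like Drd1, Drd2 and Drd4 shared 1, 1 and 2 of 5 with those named. At least 1 Th UMI was found in 10, 1 and 1 cells. No paired analysis was possible because each group has 1 library.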
